A study of Mus musculus with 4 samples.

Results

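The expression of 9 complement genes (C3, C2, C4b, Cfb, C1qa, C1qb, C1qc, Serping1 and Cd55) was followed in sorted mouse alveolar type II cells, which line the alveolus and secrete surfactant. The members were found by gene name among the probes of each array: 9 of 27340 gene names, carried by 13 of the 41158 probes used. Cells had been sorted by flow cytometry from lungs of 4 groups of mice labelled female: Tlr3-deficient (Tlr3-/-) mice with tumor, Tlr3-deficient mice without tumor, wild-type (WT) mice with tumor and WT mice without tumor. Tumor-bearing mice had received a mouse lung cancer line, Lewis lung carcinoma, under the skin, and lungs were taken 2 weeks later. The Tlr3 product senses double-stranded RNA, and the labels name neither the allele's construction, the strain background, the age nor the number of mice behind an array. Each group is 1 array, so the number of arrays limits the precision, no group has a spread between samples, and no test was made.

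Complement is a cascade of plasma and tissue proteins that marks particles for uptake and calls in inflammatory cells. C1q, built from the chains encoded by C1qa, C1qb and C1qc, starts the classical pathway; C2 and C4b supply the classical C3-cleaving enzyme and Cfb, factor B, that of the alternative pathway; all routes meet at C3. Serping1 encodes the C1 inhibitor and Cd55 a membrane protein that speeds the decay of the C3-cleaving enzymes. The liver makes most plasma complement, macrophages are a main source of C1q, and lung epithelial cells are known to make several components, C3 among them.

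The probes of 4 members are shown because the largest tumor differences among the members (Cfb, C1qa), the C1q chain that differed least (C1qb) and the member whose probe is shared with a near-identical gene (C4b) rest on them. Positions are those of the array's annotation on mm9, all on the minus strand: Cfb chr17:34993502-34993858, C1qa chr4:136452409-136452468, C1qb chr4:136436578-136436637 and C4b chr17:34866361-34866420. The Cfb span is longer than the 60 bases of its probe.
Cfb probe: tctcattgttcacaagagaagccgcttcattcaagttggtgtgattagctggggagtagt
C1qa probe: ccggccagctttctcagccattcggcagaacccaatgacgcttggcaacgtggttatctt
C1qb probe: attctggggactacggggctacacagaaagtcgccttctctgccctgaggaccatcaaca
C4b probe: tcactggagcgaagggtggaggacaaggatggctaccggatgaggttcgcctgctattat
The accession list of the C4b probe also holds a transcript of the neighbouring paralog, so its signal is uncertain between the 2 genes; the paralog's own probe, C4a, was not well above background on any array. The remaining probes lie at chr4:136445766-136445825 (C1qc), chr17:34999575-34999634 (C2), chr17:57343416-57343475 (C3), chr2:84605968-84607474 (Serping1) and chr1:132336925-132344911 (Cd55), all on mm9, minus strand.

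The 250 bases before the annotated gene start are shown for the neighbouring C1qb and C1qc and for C3, from RefSeq on GRCm38.p6, minus strand, with motif matches in capitals. The windows are chr4:136886201-136886450 for C1qb, chr4:136892915-136893164 for C1qc and chr17:57228137-57228386 for C3.
C1qb upstream: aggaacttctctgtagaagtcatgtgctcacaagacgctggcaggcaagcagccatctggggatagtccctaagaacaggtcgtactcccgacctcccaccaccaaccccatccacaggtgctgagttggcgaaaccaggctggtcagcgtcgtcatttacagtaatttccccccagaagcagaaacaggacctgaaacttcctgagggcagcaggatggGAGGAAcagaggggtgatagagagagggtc
C1qc upstream: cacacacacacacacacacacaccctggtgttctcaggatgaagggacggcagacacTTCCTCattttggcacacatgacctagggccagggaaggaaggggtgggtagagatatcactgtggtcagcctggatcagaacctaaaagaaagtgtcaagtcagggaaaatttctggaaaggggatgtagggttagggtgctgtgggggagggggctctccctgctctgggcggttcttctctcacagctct
C3 upstream: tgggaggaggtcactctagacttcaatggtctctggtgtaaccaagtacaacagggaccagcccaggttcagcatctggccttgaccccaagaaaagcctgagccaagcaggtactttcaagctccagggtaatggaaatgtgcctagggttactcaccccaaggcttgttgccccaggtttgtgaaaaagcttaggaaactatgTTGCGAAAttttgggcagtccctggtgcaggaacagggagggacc
Both strands were searched for GAGGAA (the PU box, the core bound by macrophage factor PU.1) and TTGCNNAA (C/EBP). GAGGAA had 1 match in C1qb, at -30 from the gene start, and 1 in C1qc, at -193, and it occurs in 23.3% of 32851 promoters of this length. TTGCNNAA had 1 match in C3, at -45, against 9.56% of promoters holding it. Of the 9 members, 4 were matched in the promoter table (C1qb, C1qc, C3 and Cd55).

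Values are Agilent processed intensities, background-subtracted on a linear scale, and relative levels are log2 intensity minus the array's 75th percentile, which was 904 for Tlr3-deficient with tumor, 758 for Tlr3-deficient without, 796 for WT with tumor and 555 for WT without. Between 61.0% and 65.4% of gene spots were well above background (flagged so by the scanner software) and 0 were saturated. Sftpc, the surfactant protein that defines alveolar type II cells, had relative levels of 9.03, 9.39, 9.30 and 8.84 in the order above. Tlr3, whose probe is not stated to lie in the deleted part, had relative levels of -5.30 and -5.45 on the 2 Tlr3-deficient arrays (not well above background without tumor), against -3.94 and -3.93 on the 2 WT arrays. The Tlr3-deficient array without tumor goes against its label of female: 4 Y-linked genes (Uty, Kdm5d, Eif2s3y and Ddx3y) passed the background flag there and on none of the other arrays, and Xist stood at -4.05, against 3.80 to 4.05 elsewhere. Every comparison that uses this library labelled Tlr3-deficient without tumor carries that difference; the WT tumor comparison does not use it. The arrays lie on 3 slides, and slide and group cannot be told apart.

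Cfb had the largest tumor difference of the members above background on all arrays, in both genotypes. Its processed intensity was 1520 on the Tlr3-deficient tumor array, against 408 without tumor, and 1330 on the WT tumor array, against 251 without tumor. Before scaling, both tumor arrays were thus above both arrays without tumor. The arrays' 75th percentile had the same order, at 904 and 796 with tumor against 758 and 555 without. The share of all genes with this order was not counted. After scaling, Cfb was 3.12-fold higher with tumor in Tlr3-deficient cells (log2 difference 1.64 ± 0.20, the error being that of the scanner's error model for the 2 spots, not of animals) and 3.69-fold higher in WT cells (1.89 ± 0.21). Of the genes tested, 1.96% had a difference as large or larger in Tlr3-deficient cells and 1.10% in WT cells. Between genotypes Cfb differed little: the log2 difference, Tlr3-deficient minus WT, was 0.01 with tumor and 0.25 without. Its tumor difference was 0.24 smaller on the log2 scale in Tlr3-deficient than in WT cells. Cfb has 1 spot per array, so this value has no spread of its own. Replicate spots of other probes had an SD of 0.287 in the WT and 0.111 in the Tlr3-deficient tumor comparison, each over 2 arrays, not 4.

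**Figure D1:**
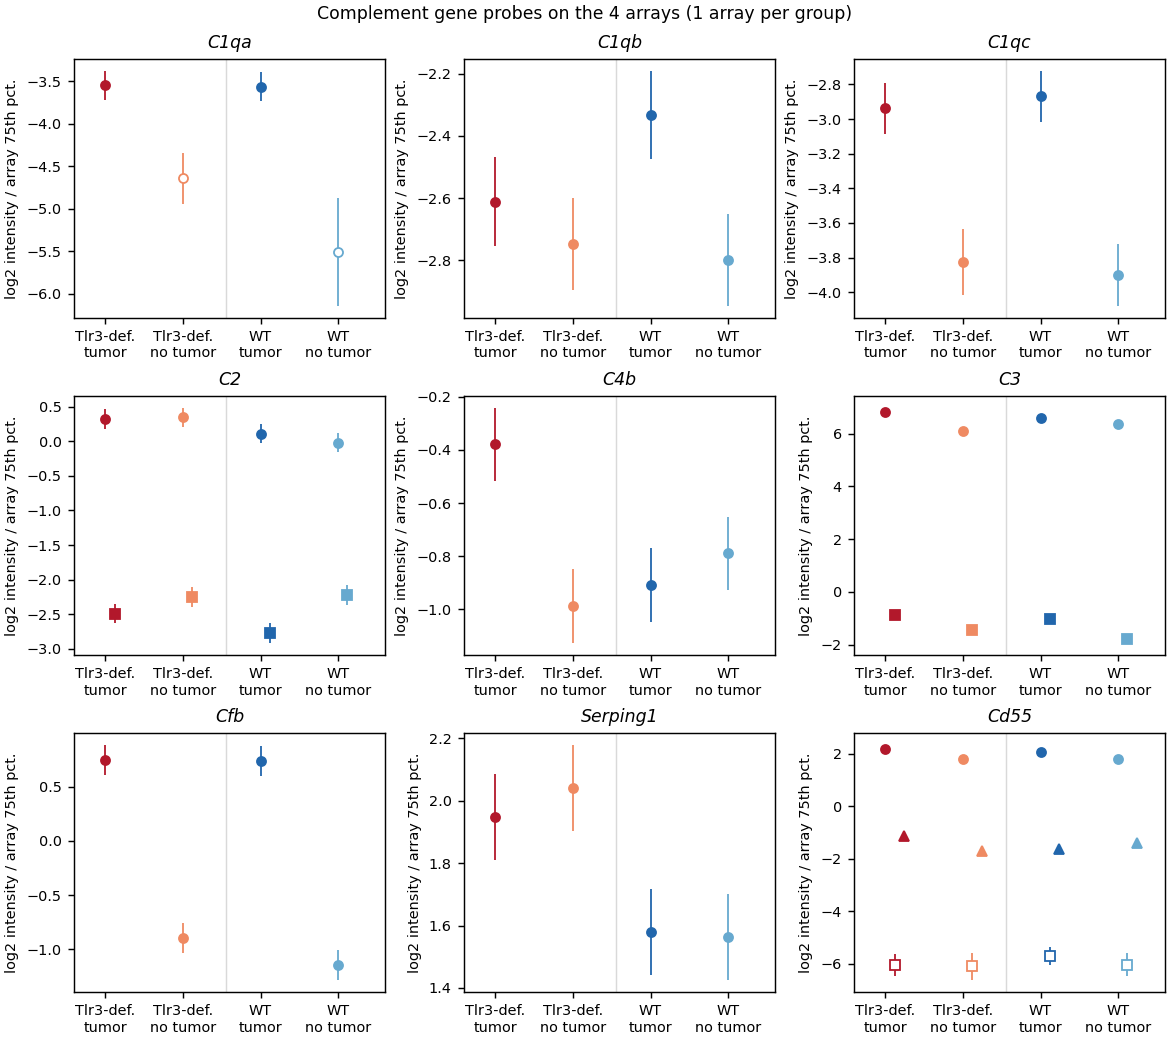
Relative level (log2 intensity over the array's 75th percentile) of every member probe on the 4 arrays, with the scanner error model's error. Open symbols are not well above background, squares and triangles are a gene's further probes, and Cfb stands at 0.75 and 0.74 on the tumor arrays, against -0.89 and -1.14 without tumor.

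A gene was counted as higher or lower when it differed by at least 2-fold and its probe carried the well-above-background flag on 1 or both arrays of the pair. With tumor in Tlr3-deficient cells, 2 of 9 members were higher, Cfb and C1qa, where 4.51% of the 17975 genes tested were higher, and 0 were lower, where 3.89% were lower. With tumor in WT cells, 3 of 9 members were higher, Cfb, C1qa and C1qc, where 5.64% of the 17805 genes tested were higher, and 0 were lower, where 1.55% were lower. C1qa was tested through the tumor arrays alone, where it is high; over members above background on both arrays the counts were 1 of 8 in Tlr3-deficient and 2 of 8 in WT cells. The median log2 difference of the 9 members tested was 0.61 in Tlr3-deficient and 0.26 in WT cells, beside -0.01 and 0.00 over all genes tested. Measured differences were above 0 for 7 of 9 members in Tlr3-deficient cells and for 8 of 9 in WT cells. The share of all genes above 0 was not counted, but their medians lay near 0. In WT cells, C2 and Serping1 fell below 0 with median centring (-0.01 and -0.13) and with normexp background correction (-0.15 and -0.17). With tumor, 0 of 9 members were higher in Tlr3-deficient than in WT cells and 0 were lower (background 2.91% and 2.62%); without tumor it was 0 of 8 and 0 of 8 (background 5.9% and 2.34%), C1qa being dim on both arrays. The tumor and genotype comparisons share arrays, so their values are not independent. In bulk RNA of sorted cells, fewer cells of a type and less RNA per cell cannot be told apart.

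**Figure D2:**
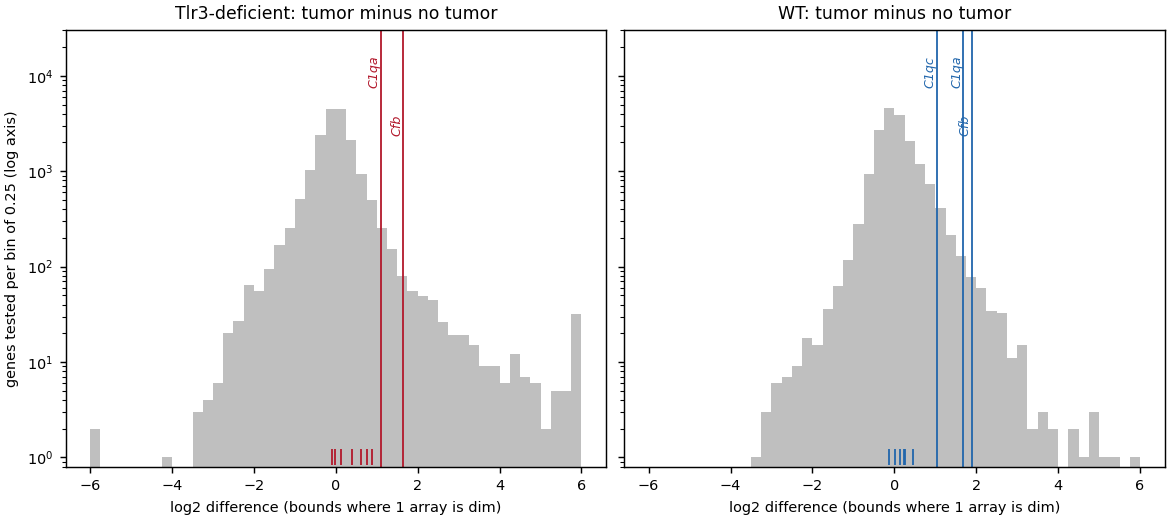
Genes tested per bin of log2 difference, tumor minus no tumor, in Tlr3-deficient (left) and WT cells (right), on a log axis; differences beyond 6 are in the last bins. Coloured lines mark the members at least 2-fold higher (Cfb and C1qa in both, C1qc in WT), and ticks the others.

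The 3 chains of C1q did not differ alike. C1qa had an intensity of 77.2 on the Tlr3-deficient tumor array, against 30.3 without tumor, and 67.2 on the WT tumor array, against 12.2 without tumor. It was well above background on the tumor arrays alone. Its bound was taken against the higher of its own dim value and the lowest signal well above background on that array. In WT cells it was thus at least 3.21-fold higher with tumor. In Tlr3-deficient cells its own dim value was used, so the 2.14-fold found there is the measured difference, not a minimum. Measured log2 differences, with the error model's error, were 1.10 ± 0.38 in Tlr3-deficient and 1.94 ± 0.82 in WT cells. The error model gave its dimmest spot an error of 55.4% of its signal. C1qc, which encodes the C chain, had 118 on the Tlr3-deficient tumor array, against 53.5 without tumor, and 109 on the WT tumor array, against 37.2 without tumor. These were 1.85-fold higher with tumor in Tlr3-deficient cells (log2 0.89 ± 0.26), just under the 2-fold line, and 2.04-fold in WT cells (1.03 ± 0.25), just over it. C1qb, which encodes the B chain, had 148 on the Tlr3-deficient tumor array, against 113 without tumor, and 158 on the WT tumor array, against 79.8 without tumor; its log2 differences were 0.14 and 0.47. C1qb differed least, and its difference in Tlr3-deficient cells lay within the error of the scanner's error model (0.14 ± 0.22). Between genotypes with tumor, the log2 differences, Tlr3-deficient minus WT, were 0.02 for C1qa, -0.28 for C1qb and -0.07 for C1qc. Under normexp background correction, the tumor differences were 0.32 and 0.18 for C1qa, -0.01 and 0.14 for C1qb and 0.46 and 0.28 for C1qc. Each pair gives Tlr3-deficient cells first, then WT cells. Normexp adds an offset of 50, near the intensity of the dimmer of these probes, and shrinks dim differences by construction.

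**Figure D3:**
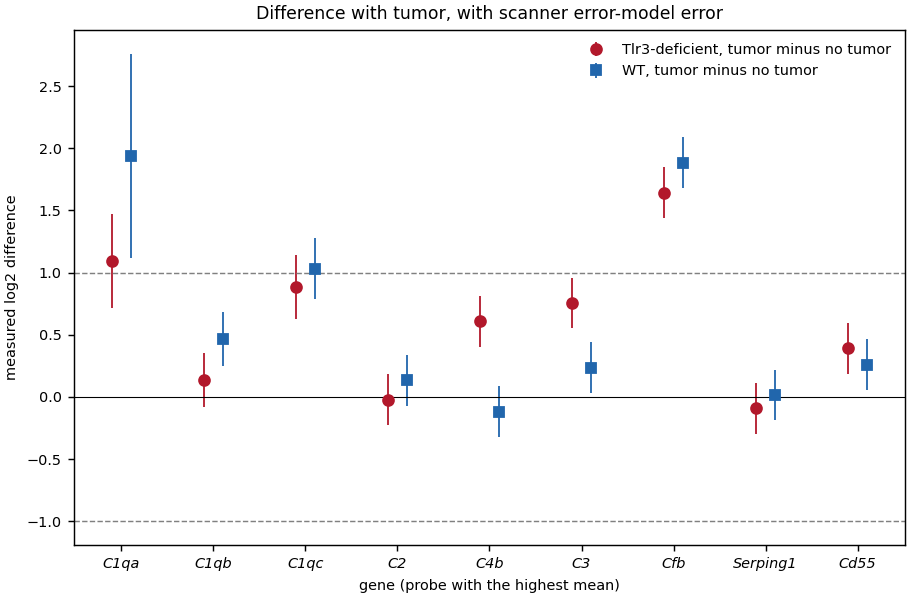
Measured log2 difference, tumor minus no tumor, of each member's brightest probe in Tlr3-deficient (circles) and WT cells (squares), with the scanner error-model error; dashed lines mark 2-fold. Cfb lies above the line in both (1.64 and 1.89), and C1qa is measured against spots not well above background.

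Macrophages are a main source of C1q, and markers of myeloid cells differed alongside it. With tumor, 8 of 9 neutrophil markers in Tlr3-deficient cells and 9 of 9 in WT cells were higher by 2-fold or more. Of all genes tested, 4.51% and 5.64% were. Of these markers, 4 in Tlr3-deficient and 5 in WT cells were above background on the tumor array alone, and so could be tested only as higher. The markers' summed linear level relative to the 75th percentile was 68.1 with tumor against 3.48 without in Tlr3-deficient cells and 106.6 against 3.87 in WT cells. Of the alveolar macrophage markers, 4 of 9 tested were higher in Tlr3-deficient cells (summed level 17.1 with tumor against 7.50 without) and 1 of 8 in WT cells (12.7 against 10.1). Of the interstitial macrophage and monocyte markers, 2 of 8 were higher in Tlr3-deficient cells (165 against 116) and 2 of 10 in WT cells (138 against 137). In both genotypes, those higher were Adgre1 and Ccr2. Ccr2 was above background on the tumor arrays alone. So was Krt79 on the Tlr3-deficient tumor array, among the alveolar macrophage markers higher there. The interstitial macrophage and monocyte sums came mostly from Ly6c2 and Apoe, which did not reach 2-fold with tumor in either genotype. On the Tlr3-deficient tumor array, Ly6c2 and Apoe had relative levels of 6.54 and 6.05, against -2.47 for Adgre1 and -3.15 for Ccr2. The defining markers Cx3cr1, Cd163 and Siglecf were not well above background on any array, and Csf1r had log2 differences of -0.78 in Tlr3-deficient and -0.90 in WT cells. Of the alveolar type II markers, 0 of 9 differed by 2-fold in either genotype. What part these cells have in the Cfb and C1q differences was not tested.

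C3, the component all pathways share, was read by a probe printed in 10 replicate spots. These averaged 103400 ± 7090 on the Tlr3-deficient tumor array, against 51290 ± 2136 without tumor, and 76670 ± 2623 on the WT tumor array, against 45760 ± 6199 without tumor (SD over spots). Before scaling, the spots of tumor and no-tumor arrays did not overlap in intensity. After scaling, those of WT did: relative levels ran from 6.52 to 6.70 with tumor and from 6.14 to 6.78 without, while in Tlr3-deficient cells they ran from 6.56 to 6.95 with tumor and from 5.98 to 6.19 without. On this scale, the log2 difference with tumor was 0.76 ± 0.11 in Tlr3-deficient and 0.23 ± 0.18 in WT cells (SD over 10 spots), both under 2-fold. On the WT array without tumor, the 4 spots in columns 1 to 51 averaged 50625 ± 7601 and the 6 in columns 52 to 85 averaged 42517 ± 1715. The WT tumor difference was thus 0.11 ± 0.23 over the first set and 0.32 ± 0.04 over the second, while in Tlr3-deficient cells these were 0.77 ± 0.01 and 0.75 ± 0.15. The second, dimmer C3 probe gave 0.57 in Tlr3-deficient and 0.78 in WT cells, the opposite order of the genotypes. Between genotypes without tumor the brighter probe gave -0.28 and the dimmer one 0.34, so no direction was shared.

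**Figure D4:**
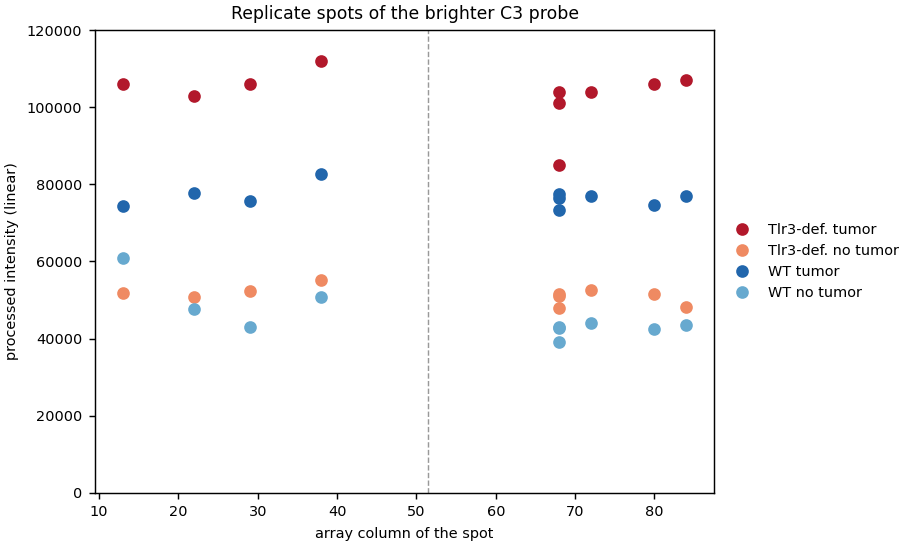
Processed intensity (linear) of the replicate spots of the brighter C3 probe against their array column, for the 4 arrays. In these intensities, before scaling, spots of the tumor arrays lie above those of both arrays without tumor; after scaling the WT spots overlap. The WT array without tumor scatters in columns 1 to 51 (left of the dashed line).

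C4b, whose product is a part of the classical enzyme, had 695 on the Tlr3-deficient tumor array, against 382 without tumor, and 424 on the WT tumor array, against 321 without tumor. Scaled, these were log2 differences of 0.61 in Tlr3-deficient and -0.12 in WT cells, with the Tlr3-deficient tumor array the highest of the 4. The single C4b spot lies in column 50, within columns 1 to 51, where C3 spots scattered on the WT array without tumor. Spots of C1qa, the brightest Cd55 probe and the second C2 and C3 probes also lie in those columns, and what this did to their values was not tested. C2, which joins C4b in that enzyme, had 1130 on the Tlr3-deficient tumor array, against 962 without tumor, and 860 on the WT tumor array, against 546 without tumor. Its log2 differences with tumor were -0.02 and 0.14; its second probe gave -0.24 and -0.54, in Tlr3-deficient and WT cells, so the 2 probes disagree in WT. C2 and Cfb probes lie 5.717 kb apart on mm9, and the other 11 genes measured in the 14-gene stretch around them had log2 tumor differences of -0.76 to 0.85 in Tlr3-deficient and -0.30 to 0.87 in WT cells; 0 of these differed by 2-fold in any comparison. Serping1, the C1 inhibitor, had 3490 on the Tlr3-deficient tumor array, against 3120 without tumor, and 2380 on the WT tumor array, against 1640 without tumor. The scaled tumor differences were -0.09 and 0.02. Between genotypes, Tlr3-deficient minus WT, Serping1 differed by 0.37 with tumor and 0.48 without. Of the genes tested, 12.0% had a genotype difference as large or larger with tumor and 17.2% without. Fibroblast and pericyte markers, of cells that also make C1 inhibitor, had 0 of 8 higher between genotypes with tumor (median -0.05) and 1 of 8 without tumor (median 0.81); their part was not tested. Cd55, the decay-accelerating protein, had 4130 on the Tlr3-deficient tumor array, against 2640 without tumor, and 3350 on the WT tumor array, against 1950 without tumor. Its brightest probe gave log2 differences of 0.39 in Tlr3-deficient and 0.26 in WT cells; a second gave 0.57 and -0.23, and the third was not well above background on any array.

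Among the members measured on all 4 arrays, the tumor difference in Tlr3-deficient cells minus that in WT cells had a median of -0.13 over 8 members, beside 0.02 over 15646 genes, and its sign turned with normexp (0.13) and median centring (0.03). Of these members, 0 of 8 reached 2-fold (background 2.1% higher and 4.44% lower). C4b (0.73) and C3 (0.52) were largest above 0, and C1qb (-0.33) and Cfb (-0.24) furthest below. By the probe with the highest mean and the 75th percentile scaling, the 5 members other than Cfb and C1q differed with tumor by at most 1.69-fold in Tlr3-deficient and 1.20-fold in WT cells.

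The rest of the pathway was read from 53 gene names, some of them alternative names of the same gene. These gave 48 different genes on the array, 35 of them well above background on at least 1 array. With tumor, 2 of 34 tested were at least 2-fold higher and 0 lower in each genotype, near the 4.51% of all genes higher in Tlr3-deficient and 5.64% in WT cells. The medians were 0.15 in both, but in WT cells the median was 0.01 with quantile normalization, 0.00 with median centring and -0.05 with normexp. Itgax, the CD11c chain of complement receptor 4, was higher in both, by 2.77 in Tlr3-deficient and 1.26 in WT cells on the log2 scale, with relative levels of -1.80 with tumor against -4.57 without in Tlr3-deficient cells. Cfi, factor I, which cleaves C3b and C4b, had a log2 difference of 1.59 in Tlr3-deficient and 0.29 in WT cells, and Cfd, factor D, which cuts factor B, was at least 2.07-fold higher in WT cells, since the WT tumor array alone had it above background. Between genotypes with tumor, 3 of 34 were higher in Tlr3-deficient cells, Masp1 (1.11), C7 (1.24) and Cfi (1.15), and 1 lower, Cfd, by at least 2.32-fold, where 2.91% of all genes were higher and 2.62% lower. Without tumor, 1 of 31 was higher, Colec11 (1.42), a lectin that starts the lectin pathway, where 5.9% of all genes were higher. The gene with the highest signal in each role differed by under 2-fold with tumor: C1ra (0.62 in Tlr3-deficient and -0.10 in WT cells), Cfp, properdin (0.09 and 0.28), Hc, mouse C5 (-0.08 and -0.13), Clu (0.42 and 0.11), Susd4 (-0.54 and -0.21) and Cd93 (-0.64 and -0.73). The receptor genes C3ar1, C5ar1 and Vsig4 were not well above background on any array.

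**Figure D5:**
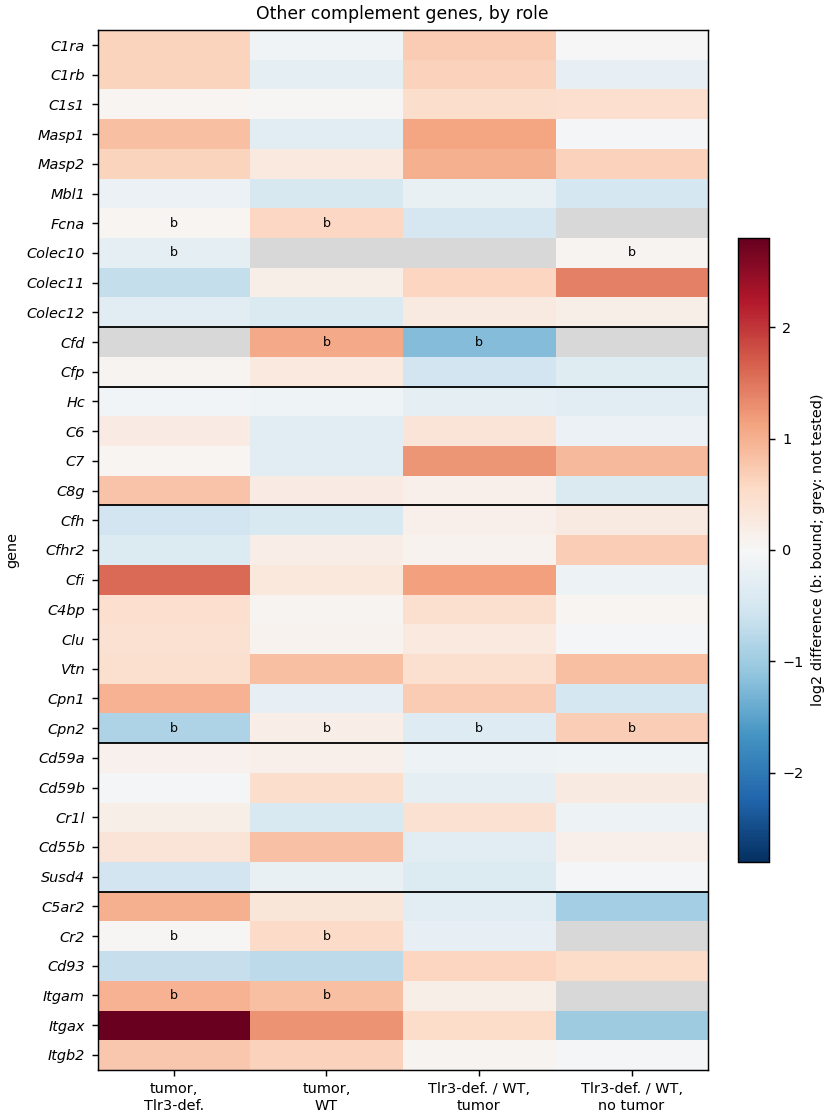
Log2 differences of 35 further complement genes in the 4 comparisons, grouped by role (horizontal lines), with bounds marked b and grey where not tested. Itgax is the most strongly coloured cell, at 2.77 with tumor in Tlr3-deficient cells.

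The acute phase genes had 0 of 6 differing by 2-fold with tumor in either genotype (medians 0.19 in Tlr3-deficient and -0.06 in WT cells). By root mean square distance of the 4 array-centred log2 values, over 15638 genes, the pattern most like Cfb was that of Casp1 (0.11), then Ighm (0.12) and Itgal (0.13); for C1qc it was Armh1 (0.04), for C1qb Eno2 (0.02), for C4b Phf20 (0.02), for C2 Borcs6 (0.02), for C3 Gm3604 (0.02) and for Serping1 Gm6607 (0.02). Casp1 had relative levels of -2.14 and -4.02 in Tlr3-deficient cells with and without tumor, and -2.41 and -4.11 in WT cells. These are descriptions over 4 arrays.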

How the data were processed

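The 4 arrays are 1-colour (Cy3) Agilent mouse arrays of design 014868. Per the file headers, spots were read by version 10.7.3.1 of Agilent Feature Extraction; the deposited processed signal is a linear, background-subtracted intensity not scaled between arrays. The authors also deposited a log2 value table of the same arrays, whose making is unstated here; its columns have medians of 6.31, correlate with log2 processed signal at 0.9995 to 0.9998, and were used as an alternative only.

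Outlier-flagged spots were left out (16 probes with none left), spots of a probe averaged on the log2 scale, and each array's 75th percentile over non-control spots subtracted. Each gene is its probe with the highest mean over 4 arrays. A bound is given where that probe was well above background on only 1 array of a pair. It equals the measured difference where the dim value exceeds the lowest signal well above background on its array. Names came through RefSeq accessions (27654 probes) in a GRCm38 table, otherwise from the files. Each group has 1 array and no test was made; an additive model of genotype and tumor over the 4 arrays was not run. Genes were called at 2-fold. The member set, gene lists and rules for naming genes were chosen with earlier results of these data known. Named genes are all members, list genes at 2-fold or the brightest of a role, defining markers, and the genes most like each member. Code was run with Python 3.11.15, numpy 2.4.6, pandas 2.3.3, and limma 3.58.1 in R 4.3.3 for normexp (offset 50) and quantile normalization, and was tested on simulated data. Alternatives were normexp, quantile, median centring, the value table, the mean of all probes, no filter on dim probes and genes above background on both arrays. A motif and some list results are not reported here. Precision is that of spots, not animals: replicate spots of a probe differed in their log2 difference with an SD of 0.111 for the tumor comparison in Tlr3-deficient and 0.287 in WT cells, 0.113 between genotypes with tumor and 0.293 without.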

Additional observations from a re-analysis of the deposited data

Results flagged for a closer look

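For 3 members the measured tumor difference had opposite signs in the 2 genotypes, which was not tested, since each genotype has 1 array with and 1 without tumor. The tumor difference in Tlr3-deficient cells minus that in WT cells was 0.73 for C4b, -0.16 for C2 and -0.11 for Serping1 on the log2 scale. For C2 and Serping1 both differences lay within the error of the scanner's error model. The second C2 probe was below 0 in both genotypes (-0.24 in Tlr3-deficient and -0.54 in WT cells), so the opposite signs of C2 rest on 1 probe. For C4b the tumor difference was 0.61 in Tlr3-deficient and -0.12 ± 0.21 in WT cells, so its WT difference also lay within that error. The C4b probe is shared with a paralog, and its spot lies in the columns where C3 spots scattered on the WT array without tumor.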

How the results depend on the processing

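No paired analysis was possible because the groups share only replicate number 1; tumor differences were not tested over the 2 genotypes. A slide block was not run, since slide and group cannot be told apart, and no array could be left out. Of 243 differences of members over 7 alternatives, 237 stayed on the same side of 2-fold, 6 lost it and 0 reversed among those called; 21 differences not called changed sign. Cfb stayed at least 2-fold higher with tumor in every alternative, with log2 differences of 1.54 to 1.71 in Tlr3-deficient and 1.54 to 1.93 in WT cells. C1qc in WT cells fell under 2-fold with quantile (0.84), median centring (0.88), the value table (0.85) and normexp (0.28). With normexp, 1 member was higher in each genotype, and the member median in Tlr3-deficient cells was 0.45; 1 member was higher there among genes above background on both arrays. Of the wider list, those higher with tumor in WT cells numbered 0 with normexp, 1 with quantile, median centring or both-array filtering, 4 with the value table or the mean of probes and 6 without the filter, which also left 1 lower; the list's median was 0.15, against -0.05 to 0.08 over the 7 alternatives. The member median of the difference of tumor changes, -0.13, ran from -0.14 to 0.13. In Tlr3-deficient cells 4 were higher with quantile or no filter and 5 with the value table, and 2 (value table) or 3 (no filter) lower. Between genotypes without tumor, 3 were higher with the value table or no filter, and 1 lower with quantile or the value table, 2 with median centring. With tumor, 1 was higher with normexp, 0 lower with normexp or both-array filtering and 2 lower with no filter, and the median was 0.0804 with the mean of probes and 0.0368 with no filter. Of all genes called with tumor in WT cells, 78.4% were higher, against 66.7% with quantile and 63.6% with median centring, which moved the median of all genes by -0.149.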
